A study of Mus musculus with 16 samples.

Results

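The effect of an antisense oligonucleotide against Dnm2 on Bin1-deficient muscle was examined by comparing 4 oligonucleotide-treated knockout samples (KO_ASO) with 4 saline-treated knockout samples (KO_PBS), 8 of the 16 samples of the series. All were tibialis anterior muscles, which lie beside the shin, from male Bin1mck-/- mice of strain C57BL/6N aged 7 weeks, given either ASO1 or phosphate-buffered saline (PBS). The other 8 samples were wild-type muscles of the same strain, sex and age given saline (WT_PBS, n = 4) or ASO1 (WT_ASO, n = 4), and they serve here as a reference. The sources used here give no dose, schedule or oligonucleotide sequence, nor the deleted part of Bin1, and the driver of the deletion is given only by the mck in the name of the line, a common short form for muscle creatine kinase. The design holds no control oligonucleotide, so lowering of Dnm2 and other actions of an oligonucleotide cannot be told apart. The members described are the 14960 genes expressed highly enough to be tested, of 29730 in the table of read counts.

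Dnm2 encodes dynamin 2, a GTPase that wraps around the necks of membrane buds and cuts them free. Bin1 encodes amphiphysin 2, a BAR-domain protein that bends membranes and helps to form the T-tubules which carry the action potential into the muscle fibre. Loss of BIN1 and gain-of-function changes of DNM2 each cause centronuclear myopathy, in which nuclei and other organelles lie at the fibre centre, and the series asked what lowering Dnm2 does to the muscle transcriptome of Bin1-deficient mice.

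Libraries held 33.3 to 37.7 M counts in KO_PBS and 27.6 to 38.5 M in KO_ASO. Fast-fibre genes, which define the tibialis anterior, summed to between 119000 and 170000 CPM, read counts scaled to a common library total, in the 8 knockout samples. On the first principal component of the knockout samples, which held 32.2% of the variance, KO_PBS ran from 10.5 to 38.4 and KO_ASO from -36.7 to -4.88. KO_ASO replicate 4 stood apart on the second component (19.1% of the variance), at -51.6 where the other 7 samples lay between -3.25 and 16.3. The same library held 53.8 CPM of Hbb-bt, an adult beta-globin of red blood cells, against 3.18 to 5.34 CPM in the other KO_ASO samples. Without this library the genes called in KO_ASO vs KO_PBS by edgeR rose from 544 to 831 and those called higher from 120 to 280.

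Dnm2 (ENSMUSG00000033335, chromosome 9, 21424908 to 21507759, plus strand, GRCm38) measured 63.1, 61.4, 67.7 and 59.1 CPM in the KO_PBS samples and 24.4, 20.7, 22.8 and 31.1 CPM in the KO_ASO samples. The groups did not overlap, and the highest value after the oligonucleotide was in KO_ASO replicate 4. The log2 fold change (log2FC) was -1.34 (SE 0.11, edgeR adjusted P = 1.72e-05), and the mean after treatment was 39.4% of the saline mean (two-sided exact permutation P = 0.0286, the smallest that 4 samples against 4 allow). Bin1 RNA was not restored, with 44.9 ± 3.27 CPM in KO_PBS and 35.5 ± 5.24 CPM in KO_ASO (SD, n = 4 each) beside 495 CPM in WT_PBS. Its log2FC of -0.34 missed the threshold (edgeR adjusted P = 0.0937, exact permutation P = 0.0571) and passed it without KO_ASO replicate 3 (edgeR adjusted P = 0.0398), without scaling beyond library totals (0.0152) and with DESeq2 (0.041).

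Of the 14960 genes tested, 544 (3.64%) were differentially expressed genes (DEGs) between KO_ASO and KO_PBS at an edgeR adjusted P under 0.05. Genes lower after the oligonucleotide outnumbered those that were higher, with 424 lower (2.83% of genes tested) and 120 higher (0.802%). The decreases were also larger: 205 of the 424 lower DEGs (48.3%) changed at least 2-fold against 27 of the 120 higher DEGs (22.5%), and 56 and 3, respectively, changed at least 4-fold. The median log2FC was -0.98 among lower and 0.56 among higher DEGs, with sizes of 0.23 to 5.43 and 0.24 to 3.75. Without scaling beyond library totals, which shifts the median of all genes from 0.01 to -0.084, the split was 697 lower and 63 higher. The 4 and 4 values did not overlap for 409 of the lower and 111 of the higher DEGs. Over all genes tested, 949 (6.34%) had all KO_ASO values below all KO_PBS values and 604 (4.04%) the reverse. An unadjusted P under 0.05 was reached by 2642 of the 14960 genes tested. These shares stand beside each list count given below.

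**Figure D1:**
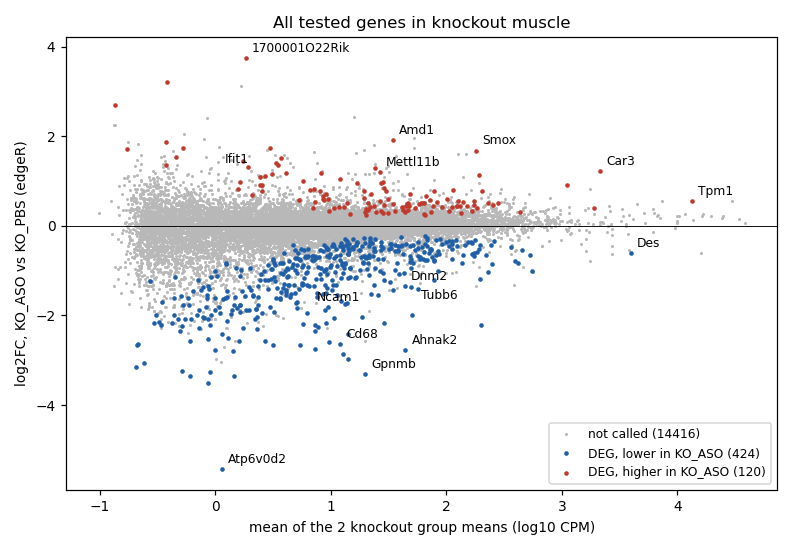
Mean of the KO_PBS and KO_ASO group means (CPM on a log10 scale, x axis) against the log2 fold change of KO_ASO vs KO_PBS (y axis) for each of the 14960 genes tested. Coloured points are the 544 DEGs, 424 below and 120 above zero, and lower DEGs reach further from zero than higher DEGs.

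The number of DEGs depended on single libraries. It fell to 208 without KO_PBS replicate 1 and to 212 without KO_ASO replicate 1, lay at 263, 322 and 328 without KO_ASO replicate 3, KO_PBS replicate 4 and KO_ASO replicate 2, and rose to 831 without KO_ASO replicate 4. None of the 544 DEGs changed direction in these fits, but most had values that did not overlap, so leaving out 1 sample could hardly turn them. In all, 174 DEGs (155 lower and 19 higher) kept their call without any 1 of the 8 knockout samples. The genes described next belong to these 174 unless the left-out libraries that end a call are given. DEGs lay on each autosome and the X chromosome, from 2.16% of the genes tested on chromosome 18 to 4.79% on chromosome 3, and 0 were among the 19 mitochondrial and 6 Y-linked genes tested. Protein-coding genes made up 94.5% of DEGs and 88.0% of genes tested.

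Genes of the membrane skeleton and membrane repair were among the decreases. Ahnak2, a giant scaffold protein found at the costameres that tie the sarcomere to the surface membrane, had the smallest P value of all genes. Ahnak2 (ENSMUSG00000072812, chromosome 12, 112772194 to 112802657, minus strand) measured 91.4, 78.9, 62.8 and 75.3 CPM in KO_PBS and 10.3, 14.5, 8.51 and 11.5 CPM in KO_ASO. Every treated sample lay far below every saline sample (log2FC -2.78, SE 0.2, edgeR adjusted P = 4.79e-06). Anxa4, a calcium-dependent phospholipid-binding annexin, fell from 36.8, 37.7, 33.2 and 45.8 CPM to 18.8, 18, 16.3 and 21 CPM (log2FC -1.05, SE 0.1, edgeR adjusted P = 3.19e-05). The annexins Anxa2 (109 ± 22 to 47.1 ± 18.9 CPM) and Anxa1 (24.5 ± 3.36 to 13.7 ± 3.67 CPM; SD, n = 4) also fell, as did the calpain Capn2, a calcium-activated protease, at a log2FC of -0.52. Anxa2 was not called from the knockout samples alone (edgeR adjusted P = 0.0559). Of the 18 annexin and membrane repair genes tested 7 fell and 0 rose, and their median log2FC was -0.45 where that of all genes was 0.01. The other 2 of the 7 were the giant scaffold Ahnak and dysferlin, Dysf, a sensor of membrane tears (log2FC -0.48 and -0.42). Both calls ended without KO_ASO replicate 1 or 3 or KO_PBS replicate 1 or 4 and that of Ahnak also without KO_ASO replicate 2 (edgeR adjusted P 0.0634 to 0.0963).

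Some cytoskeletal genes fell as well. Des encodes desmin, the intermediate filament that links Z-discs of neighbouring myofibrils, and it had the highest level of all lower DEGs. Desmin RNA measured 5270, 4890, 4540 and 4380 CPM in KO_PBS and 3360, 3070, 2960 and 3240 CPM in KO_ASO, without overlap (log2FC -0.6, SE 0.1, edgeR adjusted P = 0.00303). The beta-tubulin Tubb6 fell from 71.8 ± 7.49 to 27.9 ± 10.9 CPM (SD, n = 4, log2FC -1.36, edgeR adjusted P = 0.00401). With Lmna and Nes, 4 of the 14 tubulin and intermediate filament genes fell and 0 rose (median log2FC -0.25). With 1 knockout sample left out the median ran from -0.48 to -0.04, and the count was 2 without KO_ASO replicate 1 or 3 or KO_PBS replicate 1. Lmna, the nuclear lamin A/C, lost its call without KO_ASO replicate 1, KO_ASO replicate 3 or KO_PBS replicate 1 (edgeR adjusted P 0.0608 to 0.0654), and Nes, the intermediate filament nestin, without any of KO_ASO replicates 1 to 3, KO_PBS replicates 1 and 2 and WT_PBS replicates 2 and 4 (0.0502 to 0.136). The small heat shock protein Hspb1, which protects filaments under stress, measured 74.8, 50.8, 37.9 and 70.6 CPM in KO_PBS and 28.1, 29.8, 25.1 and 29.6 CPM in KO_ASO (log2FC -1.06, edgeR adjusted P = 0.00521). It and Xirp1, an actin-binding protein of damaged and remodelling fibres, were the 2 lower DEGs among 14 Z-disc and muscle stress genes (0 higher, median log2FC -0.51, and -0.60 to -0.32 with 1 knockout sample left out), where 5 were called without KO_PBS replicate 3 and 4 in a model that takes replicate numbers as blocks (the replicate block). Xirp1 fell from 736 ± 205 to 365 ± 84.3 CPM and the small heat shock protein Hspb8 from 651 ± 105 to 419 ± 74.0 CPM (SD, n = 4). Both lost their call without KO_ASO replicate 1, 3 or 4 or KO_PBS replicate 1 or 4 (edgeR adjusted P 0.0558 to 0.105).

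**Figure D2:**
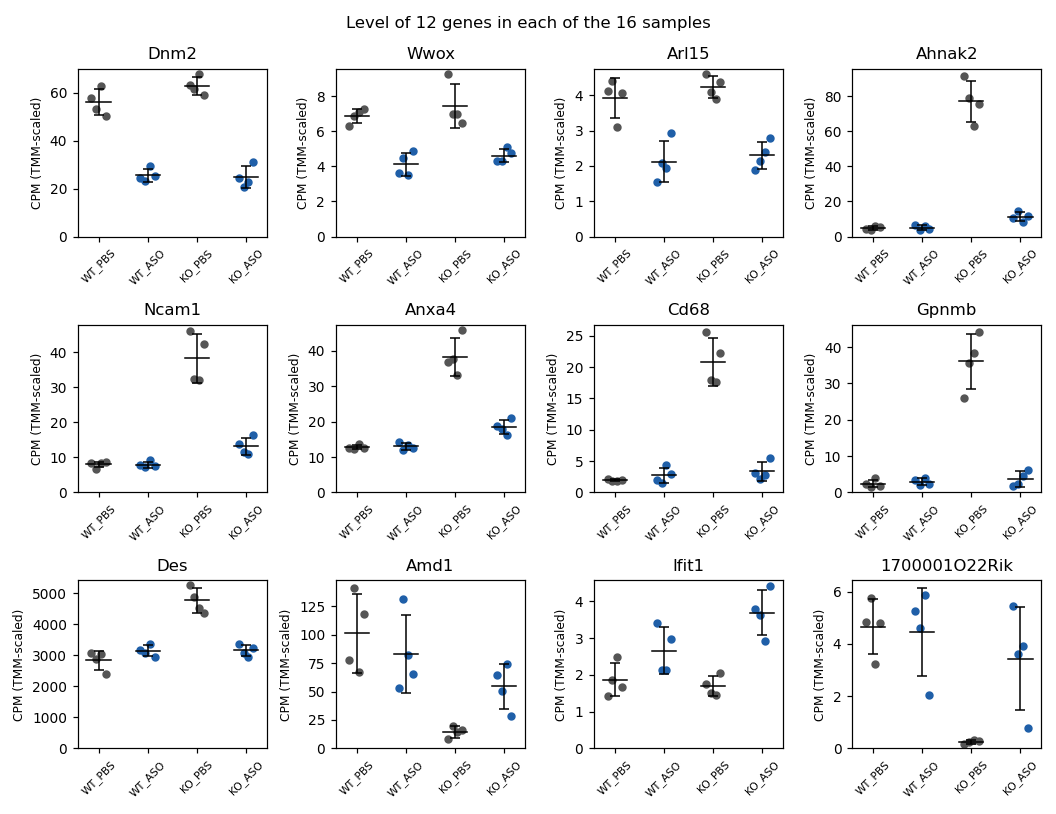
CPM of 12 genes in each sample of the 4 groups; points are samples and bars show mean ± SD (n = 4). Dnm2, Wwox and Arl15 are lower in the oligonucleotide samples of both genotypes, whereas Ahnak2, Ncam1, Anxa4, Cd68, Gpnmb and Des are highest in KO_PBS, and 1700001O22Rik and Amd1 are lowest in KO_PBS.

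Genes known for their response to loss of the nerve supply moved in both directions. Muscle fibres cut off from the motor nerve make neural cell adhesion molecule, fetal channels and receptor subunits along the whole fibre, where an innervated fibre keeps receptor expression at the neuromuscular junction. Ncam1 (chromosome 9, 49502136 to 49798925, minus strand) measured 46.0, 32.5, 32.2 and 42.4 CPM in KO_PBS and 13.7, 11.5, 11.1 and 16.3 CPM in KO_ASO. The 2 groups were well separated (log2FC -1.54, SE 0.14, edgeR adjusted P = 3.15e-05). The transcription factor Runx1, induced in denervated muscle, fell from 11.1 ± 2.86 to 3.94 ± 1.37 CPM and the small-conductance potassium channel Kcnn3 from 20.3 ± 5.53 to 9.15 ± 0.517 CPM (SD, n = 4). Sox11, a transcription factor of developing tissue, was rare, at 108, 91, 65 and 74 counts in KO_PBS and 18, 25, 20 and 19 counts in KO_ASO (log2FC -1.76, edgeR adjusted P = 0.00118).

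In all, 5 of 14 denervation regulators and channels fell and 2 rose (median log2FC -0.52). The 2 that rose were Kcnn2, a channel of the same family as Kcnn3, and Fgfbp1, a secreted carrier of fibroblast growth factors. Kcnn2 rose from 1.69 ± 0.256 to 3.21 ± 0.8 CPM (SD, n = 4, log2FC 0.92, edgeR adjusted P = 0.00737), opposite to Kcnn3. Fgfbp1 rose by a log2FC of 1.45, a call that ended without KO_ASO replicate 1 (edgeR adjusted P = 0.0691).

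Of 14 neuromuscular junction genes, 2 subunits of the acetylcholine receptor fell and 0 rose (median log2FC -0.15, and -0.23 to -0.10 with 1 knockout sample left out). The alpha subunit Chrna1 measured 84.0, 51.5, 56.5 and 69.5 CPM in KO_PBS and 38.2, 44.8, 21.8 and 30.4 CPM in KO_ASO (log2FC -0.95, edgeR adjusted P = 0.0216). The delta subunit Chrnd measured 35.9, 15.5, 12.6 and 18.3 CPM in KO_PBS and 6.44, 6.74, 4.12 and 7.39 CPM in KO_ASO (log2FC -1.74, edgeR adjusted P = 0.0182). Neither pair of groups overlapped, but both calls ended without KO_ASO replicate 3 or KO_PBS replicate 1, that of Chrna1 also without KO_PBS replicate 4 and that of Chrnd also without KO_ASO replicate 1 (edgeR adjusted P 0.053 to 0.0799). The fetal gamma subunit Chrng, named after its values were seen, measured 0.842 ± 0.591 CPM in KO_PBS and 1.03 ± 0.489 CPM in KO_ASO (SD, n = 4), a difference within the spread between samples (edgeR adjusted P = 0.799). The E-box, bound by myogenic transcription factors such as myogenin, has the form CAGCTG in the Chrna1 promoter, which is shown from RefSeq for GRCm38.p6 (chr2:73580289-73580588, minus strand, 250 bases before to 50 after the start) with both matches in capitals, their first bases at -92 and -44 from the start.
Chrna1: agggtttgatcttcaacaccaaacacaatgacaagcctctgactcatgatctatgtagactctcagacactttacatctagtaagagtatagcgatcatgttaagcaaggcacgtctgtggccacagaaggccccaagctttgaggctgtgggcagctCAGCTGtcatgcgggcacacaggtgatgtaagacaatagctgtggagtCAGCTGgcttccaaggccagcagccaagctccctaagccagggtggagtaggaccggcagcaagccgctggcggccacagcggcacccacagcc
The same letters, searched on both strands, occurred in 15.3% of the 10908 promoters available. Myogenin itself, Myog, measured 21.4 ± 6.34 CPM in KO_PBS and 12.6 ± 5.46 CPM in KO_ASO (SD, n = 4) and missed the threshold (edgeR adjusted P = 0.174), as did each of the 14 myogenic and fusion factors by edgeR, with 4 at an unadjusted P under 0.05 and 1 called by DESeq2.

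Other decreases of small P value belonged to genes of varied function. Tmbim1, a membrane protein of the Bax inhibitor family found on lysosomes and Golgi, fell from 114 ± 10.5 to 57.1 ± 6.88 CPM (SD, n = 4, log2FC -1.0, SE 0.09, edgeR adjusted P = 3.15e-05). Tnfrsf23, a decoy receptor for the death ligand TRAIL, fell from 15.9 ± 1.08 to 6.3 ± 0.934 CPM (edgeR adjusted P = 3.19e-05), and its neighbouring paralog Tnfrsf22 from 4.96 ± 1.03 to 2.38 ± 0.53 CPM (SD, n = 4). With Eda2r, 3 of 11 TNF receptor genes fell and 0 rose (median log2FC -0.40, and -0.57 to -0.24 with 1 knockout sample left out). Eda2r, the receptor of the ectodysplasin isoform A2, ran from 54.5 to 110 CPM in KO_PBS and from 19 to 44.7 CPM in KO_ASO, and its call ended without KO_ASO replicate 1, 3 or 4, KO_PBS replicate 1 or 4 or WT_PBS replicate 1 or 3 (edgeR adjusted P 0.0501 to 0.11). The neurotransmitter transporter Slc6a17 measured 30.8, 29.5, 23.5 and 15.6 CPM in KO_PBS and 2.8, 3.8, 3.08 and 2.93 CPM in KO_ASO (log2FC -2.98, SE 0.37, edgeR adjusted P = 0.000514). Sh2d4a, an SH2-domain adaptor, fell from 12 ± 3.04 to 2.56 ± 0.635 CPM and the F-box gene Fbxl13, of the ubiquitin ligase family, from 2.62 ± 0.847 to 0.258 ± 0.148 CPM (SD, n = 4).

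Sarcolipin and metallothionein 3 fell more than 4-fold. Sln, the small inhibitor of the calcium pump of the sarcoplasmic reticulum, measured 31.3, 14.5, 5.83 and 14.7 CPM in KO_PBS and 3.39, 3.48, 1.49 and 2.58 CPM in KO_ASO (log2FC -2.59, SE 0.44, edgeR adjusted P = 0.00485). Of 22 triad and calcium handling genes, Sln and Cav3, the caveolin of muscle, fell and 0 rose (median log2FC 0.07, or -0.03 without scaling), and Cav3 lost its call without any of KO_ASO replicates 1 to 3 or KO_PBS replicate 1 (edgeR adjusted P 0.061 to 0.0852). Mt3, a metal-binding metallothionein, measured 22.4, 22, 23.8 and 27.3 CPM in KO_PBS and 2.53, 3.48, 2.18 and 9.82 CPM in KO_ASO (log2FC -2.41, SE 0.39, edgeR adjusted P = 0.00329). The treated sample nearest to the saline samples was KO_ASO replicate 4. Mt3 and the zinc transporter Slc39a14 were the 2 lower DEGs among 8 metallothionein and zinc transporter genes (0 higher, median log2FC -0.55), and Slc39a14 lost its call without KO_ASO replicate 1, 2 or 4 or KO_PBS replicate 1 or 4 (edgeR adjusted P 0.0531 to 0.118).

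Of 20 macrophage genes tested 10 were DEGs, all lower in KO_ASO (median log2FC -1.56). Macrophages clear damaged fibres and debris in diseased muscle. Cd68, a lysosomal glycoprotein of phagocytes (chromosome 11, 69664213 to 69666153, minus strand), measured 25.6, 17.9, 17.6 and 22.2 CPM in KO_PBS and 3.12, 2.08, 2.73 and 5.54 CPM in KO_ASO. The groups did not overlap (log2FC -2.63, SE 0.29, edgeR adjusted P = 0.000228). Csf1r, the receptor for the macrophage growth factor CSF1, fell from 21.1 ± 8.82 to 6.4 ± 1.79 CPM and the haemoglobin scavenger receptor Cd163 from 11.4 ± 4.3 to 3.84 ± 1.34 CPM (SD, n = 4). Cd14, the co-receptor for bacterial lipopolysaccharide, fell from 2.51 ± 1.01 to 0.92 ± 0.271 CPM, a call lost without KO_ASO replicate 1 (edgeR adjusted P = 0.062). The summed level of the 20 markers ran from 151 to 447 CPM in KO_PBS and from 69.1 to 101 CPM in KO_ASO, beside 64.0 to 102 CPM in WT_PBS. In bulk muscle, fewer macrophages and less RNA per macrophage cannot be told apart.

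The spread among KO_PBS samples bore on this group, since KO_PBS replicate 4 held the sum of 447 CPM and the next sample 254 CPM. The number of macrophage DEGs was 3 to 4 without KO_ASO replicate 1, 2 or 3 or KO_PBS replicate 1 or 4, 9 without KO_ASO replicate 4, 13 and 14 without KO_PBS replicates 2 and 3, and 17 with DESeq2. The median log2FC stayed negative in each of these fits, between -1.77 and -1.15. Cd68, Csf1r and Cd163 were called in each of them. Lyz2, C1qa, C1qb, C1qc, Tyrobp and Laptm5, which encode lysozyme, the 3 chains of complement C1q, an immune adaptor and a lysosomal membrane protein, were the other DEGs, and their calls ended without any of KO_ASO replicates 1 to 3 or KO_PBS replicates 1 or 4 (edgeR adjusted P 0.0577 to 0.13). Tyrobp lost it also without KO_ASO replicate 4 or any 1 WT_PBS sample.

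**Figure D3:**
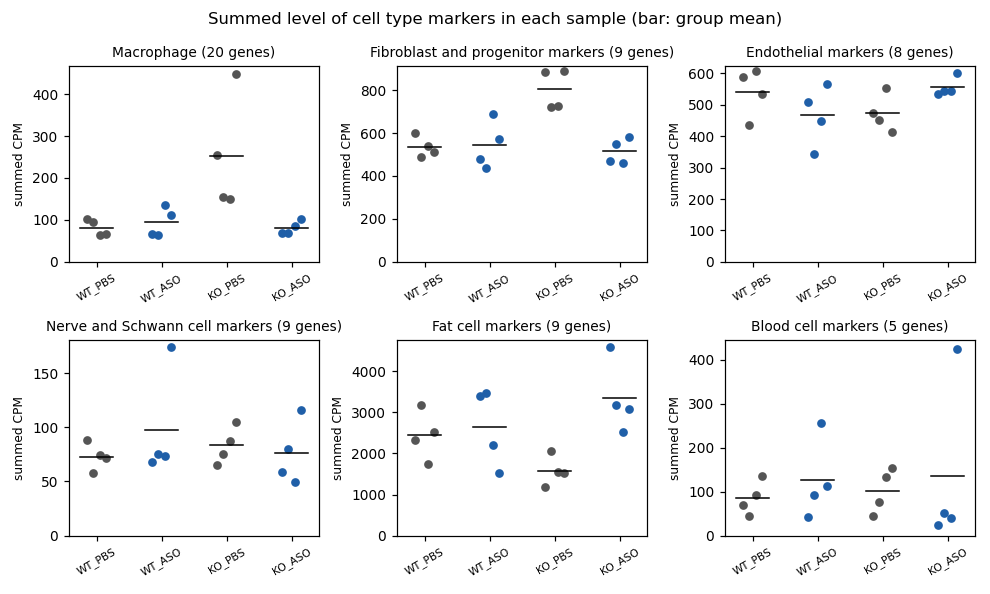
Summed CPM of 6 lists of cell type markers in each of the 16 samples; points are samples and bars group means. In the knockout samples the fat sum (1180 to 2070 CPM in KO_PBS, 2530 to 4580 CPM in KO_ASO) is mostly Car3. A large part of the fibroblast sum there is Gsn. The macrophage sum is highest in KO_PBS replicate 4 (447 CPM) and 69.1 to 101 CPM in KO_ASO, the fibroblast sum is lower in KO_ASO than in KO_PBS, and the blood sum reaches 424 CPM in KO_ASO replicate 4.

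Genes of lipid-laden, phagocytic macrophages changed in both directions. Gpnmb, a membrane glycoprotein of lysosomal stress (chromosome 6, 49036546 to 49070929, plus strand), measured 26.1, 35.7, 38.3 and 44.1 CPM in KO_PBS and 1.68, 2.36, 4.4 and 6.31 CPM in KO_ASO (log2FC -3.3, SE 0.37, edgeR adjusted P = 0.000295). Atp6v0d2, a subunit of the proton pump of osteoclasts and macrophages, was read 52, 139, 90 and 55 times in KO_PBS and 1, 0, 1 and 4 times in KO_ASO. It was nearly absent after treatment, as in WT_PBS with 1, 1, 5 and 4 counts, and its log2FC of -5.43 (SE 0.64), the largest of all DEGs, rests on 6 counts in all in KO_ASO. The galactose-binding lectin Lgals3 fell from 29.7 ± 11.1 to 7.25 ± 2.62 CPM (SD, n = 4, edgeR adjusted P = 0.00216). In contrast, Pla2g7, the secreted phospholipase that inactivates platelet-activating factor, rose from 9.13, 14.4, 11.2 and 21.4 CPM to 36.5, 34.9, 36.8 and 28.9 CPM (log2FC 1.29, SE 0.22, edgeR adjusted P = 0.00517). Of 13 such genes tested 3 fell and 1 rose, and these 4 were called without any 1 knockout sample. The median log2FC of the 13 was -0.74 and ran from -0.90 to -0.20 with 1 knockout sample left out.

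Lysosomal genes fell in part. The hydrolases Hexa, which degrades gangliosides, and Gusb, which degrades glycosaminoglycans, fell from 72.6 ± 4.76 to 44.8 ± 4.53 CPM and from 22.5 ± 2.52 to 13.9 ± 0.69 CPM (SD, n = 4, edgeR adjusted P = 0.000295 and 0.00401). The cathepsins Ctsl, Ctss and Ctsz were also lower, so that 5 of 28 lysosomal genes fell and 0 rose (median log2FC -0.14, and -0.19 to -0.06 with 1 knockout sample left out). Ctss measured 10.4, 5.84, 5.27 and 38.0 CPM in KO_PBS and 2.91 to 3.77 CPM in KO_ASO, and its log2FC of -2.16 was -1.11 without KO_PBS replicate 4. The 3 cathepsin calls ended without any of KO_ASO replicates 1 to 3 or KO_PBS replicates 1 or 4, those of Ctsl and Ctss also without KO_ASO replicate 4, and those of Ctss and Ctsz also without any 1 WT_PBS sample or some WT_ASO samples (edgeR adjusted P 0.0501 to 0.138). Map1lc3a, an LC3 protein of the autophagosome membrane, fell from 210 ± 20 to 137 ± 8.9 CPM (SD, n = 4, edgeR adjusted P = 0.0036) and was the only DEG by edgeR among 15 autophagy genes (median log2FC 0.04, which was -0.01 without KO_ASO replicate 2 and -0.06 without scaling), with 2 called without KO_ASO replicate 4 and with DESeq2 or limma-voom.

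Complement genes beyond C1q depended on single libraries. Of 13 tested 4 were lower, among them the activator properdin, Cfp, the anaphylatoxin receptor C5ar1 and the inhibitor Serping1, and 0 higher (median log2FC -0.81, and -1.06 to -0.53 with 1 knockout sample left out, all 13 negative). The count was 0 without KO_ASO replicate 1 or 3 or KO_PBS replicate 1 or 4, 1 without KO_ASO replicate 2, and 5 without the others of the 8, and DESeq2 called 7. Chemokines and their receptors gave 1 lower DEG of 16, Ccl9 (9.91 ± 7.37 to 2.59 ± 0.463 CPM; SD, n = 4), with a median log2FC of -1.06, which ran from -1.24 to -0.55 with 1 knockout sample left out. The count was 3 without KO_PBS replicate 3 and 5 with DESeq2. Antigen presentation genes gave 1 lower DEG of 13, the class II transactivator Ciita, with a median of -0.07 (-0.16 to -0.02 with 1 knockout sample left out, and 0.09 with a filter of 1 CPM in 4 samples). The list held 3 calls with DESeq2, 5 with limma-voom, 4 from the knockout samples alone and 0 with the replicate block. Both of these calls ended without any of KO_ASO replicates 1 to 3, KO_PBS replicates 1 or 4 or WT_PBS replicates 2 to 4, among others (edgeR adjusted P 0.0504 to 0.132).

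Genes of the extracellular matrix had mostly negative differences, and the number of calls depended on the tool. Timp1, an inhibitor of matrix metalloproteinases, measured 43.4, 17.4, 13.8 and 15.1 CPM in KO_PBS and 2.2, 2.62, 4.12 and 3.48 CPM in KO_ASO, without overlap (log2FC -2.86, SE 0.45, edgeR adjusted P = 0.00296). It was 1 of 2 lower DEGs, with the lysyl oxidase relative Loxl1, among 18 matrix proteases, inhibitors and crosslinking enzymes (0 higher, median log2FC -0.62). That list held 4 calls without KO_ASO replicate 4, 5 with DESeq2 and 4 with limma-voom. Ltbp2, which binds to elastic microfibrils, fell by a log2FC of -2.58 (edgeR adjusted P = 0.0114), which was -1.66 without KO_PBS replicate 1, where it measured 6.7 CPM against 1.12 to 1.65 CPM in the other saline samples. From the knockout samples alone it was not called (edgeR adjusted P = 0.0692). Ltbp2 and its relative Ltbp1 were the 2 lower DEGs of 18 genes of myostatin, activin and TGF-beta signalling (0 higher, median log2FC -0.05, which was 0.02 without KO_ASO replicate 1 and 0.01 without KO_PBS replicate 4), where DESeq2 called 6 and limma-voom 5. All 17 collagens had negative log2FC values (median -0.63) and none was a DEG by edgeR, with 6 at an unadjusted P under 0.05. Col5a2, Col8a1 and Col14a1 passed with DESeq2, limma-voom, the replicate number as a block (edgeR adjusted P 0.0423 to 0.0443) and without KO_ASO replicate 4. Summed collagens were 1060 and 1310 CPM in KO_ASO replicates 1 and 2 but 2900 and 3070 CPM in replicates 3 and 4, against 2290 to 3710 CPM in KO_PBS, and in WT_ASO they were 913 and 1310 CPM in replicates 1 and 2 but 2480 and 2960 CPM in replicates 3 and 4.

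Of 16 matrix glycoproteins 1 fell, the proteoglycan Vcan (median log2FC -0.58, and -0.77 to -0.38 with 1 knockout sample left out), and of 8 small leucine-rich proteoglycans 1 fell, Dcn (median -0.72). Gelsolin, Gsn, an actin-severing protein also used as a fibroblast marker, measured 564, 478, 488 and 599 CPM in KO_PBS and 294, 351, 263 and 291 CPM in KO_ASO (log2FC -0.83, SE 0.14, edgeR adjusted P = 0.00474). With Mfap5, a microfibril protein, it was 1 of 2 lower DEGs among 9 fibroblast and progenitor markers (0 higher, median log2FC -0.83). The summed level of these 9 ran from 721 to 888 CPM in KO_PBS and from 460 to 582 CPM in KO_ASO, without overlap. Gsn alone supplied a large part of each sum, so the sums do not show a fall of the other markers. The integrins Itga7, the laminin receptor of muscle fibres, and Itgb2, of leukocytes, were the 2 lower DEGs of 15 adhesion genes (median log2FC -0.25). Itgb2 measured 9.59 CPM in KO_PBS replicate 4 and 2.56 to 3.25 CPM in the other saline samples, and its log2FC of -1.8 was -1.15 without that sample. Vcan, Dcn, Mfap5, Loxl1, Itga7 and Itgb2 each lost their call without any of KO_ASO replicates 1 to 3 or KO_PBS replicates 1 or 4, and Ltbp1 without any KO_ASO sample, KO_PBS replicate 3 or 4 or WT_PBS replicate 1 or 3 (edgeR adjusted P 0.0502 to 0.149). For Loxl1 and Mfap5 this held also without any 1 WT_PBS sample. In the other direction, without KO_ASO replicate 4 the calls numbered 3 among matrix glycoproteins, 3 among small leucine-rich proteoglycans, 4 among fibroblast markers and 4 among adhesion genes, and adhesion genes gave 5 without KO_PBS replicate 3. In the same order DESeq2 called 3, 2, 5 and 5 and limma-voom 2, 3, 5 and 5.

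**Figure D4:**
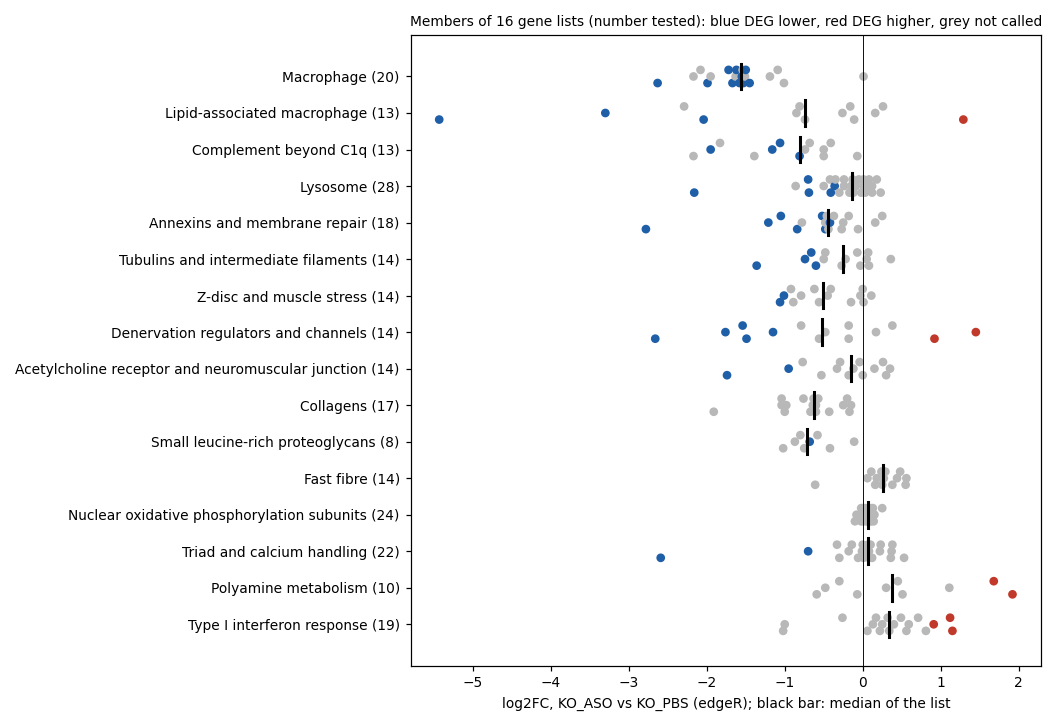
Log2 fold change of KO_ASO vs KO_PBS for each tested member of 16 gene lists; each point is a gene, blue and red points are lower and higher DEGs, grey points were not called and the bar is the list's median. The macrophage median lies at -1.56 with 10 DEGs of 20 genes, and the interferon and polyamine lists hold DEGs only above zero.

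Among higher DEGs the steepest was 1700001O22Rik, an uncharacterised protein-coding gene (chromosome 2, 30794769 to 30803661, minus strand). It was read 6, 8, 13 and 12 times in KO_PBS and 201, 113, 113 and 22 times in KO_ASO, and 125 to 191 times in WT_PBS. The KO_ASO value nearest to saline was again in replicate 4 (log2FC 3.75, SE 0.52, edgeR adjusted P = 0.00108). Mettl11b, a methyltransferase of protein N-termini, rose from 13.1, 18.1, 18 and 14.8 CPM to 44.1, 43.7, 35.2 and 25.3 CPM (log2FC 1.21, SE 0.19, edgeR adjusted P = 0.00266). Tpx2, a spindle assembly factor, rose from 1.98 ± 0.316 to 5.06 ± 1.28 CPM (SD, n = 4, log2FC 1.35, edgeR adjusted P = 0.00737). The 17 genes of the cell cycle list held 0 DEGs, with 1 at an unadjusted P under 0.05 0 called by DESeq2, 1 by limma-voom and 1 by edgeR without KO_ASO replicate 4.

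Polyamine genes gave 2 higher and 0 lower DEGs of 10 tested (median log2FC 0.38, and 0.23 to 0.47 with 1 knockout sample left out). Polyamines are small cations made from ornithine, and Amd1 encodes the enzyme that supplies the aminopropyl group for spermidine and spermine. Amd1 measured 7.91, 19.7, 14.1 and 15.8 CPM in KO_PBS and 64.4, 50.7, 74.2 and 28.7 CPM in KO_ASO (log2FC 1.92, SE 0.37, edgeR adjusted P = 0.0108). Its near-identical copy Amd2, with which it can share reads, measured 0.126 ± 0.095 and 0.271 ± 0.179 CPM (SD, n = 4, edgeR adjusted P = 0.464). The spermine oxidase Smox ran from 41.0 to 118 CPM in KO_PBS and read 344, 205, 432 and 119 CPM in KO_ASO (log2FC 1.68, edgeR adjusted P = 0.0448). The lowest treated value, again of replicate 4, almost met the highest saline value, and the call ended without any 1 of KO_ASO replicates 1 to 3, the KO_PBS samples or the WT_PBS samples (edgeR adjusted P 0.0552 to 0.133) and with the replicate block (0.0611). The rate-limiting decarboxylase Odc1, 37.4 ± 4.83 CPM in KO_PBS and 50.8 ± 22.2 CPM in KO_ASO (SD, n = 4), did not pass (edgeR adjusted P = 0.522).

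Interferon-stimulated genes gave 3 higher and 0 lower DEGs of 19 tested (median log2FC 0.34, and 0.21 to 0.43 with 1 knockout sample left out, 16 of 19 positive), and limma-voom called 5. Ifit1 and Ifit3 encode proteins that bind foreign RNA and are induced by type I interferon through the factor complex ISGF3. Ifit1 (chromosome 19, 34640871 to 34650009, plus strand) measured 1.76, 1.5, 1.46 and 2.05 CPM in KO_PBS and 3.8, 3.64, 2.91 and 4.42 CPM in KO_ASO (log2FC 1.12, SE 0.21, edgeR adjusted P = 0.00737). Ifit3 measured 1.9, 1.27, 1.78 and 2.81 CPM in KO_PBS and 4.89, 4.06, 3.81 and 4.49 CPM in KO_ASO (log2FC 1.15, SE 0.22, edgeR adjusted P = 0.00998). For both genes all treated samples exceeded all saline samples. Ifi44 rose from 1.75 ± 0.515 to 3.3 ± 0.522 CPM (SD, n = 4), a call lost without any KO_ASO sample, any of KO_PBS replicates 1 to 3 or WT_PBS replicate 1 or 4 (edgeR adjusted P 0.0507 to 0.118). Other genes of the response went either way without passing, such as Isg15 with a log2FC of 0.81 and Mx1 with -1.02. In wild-type muscle the log2FC of WT_ASO vs WT_PBS was 0.51 for Ifit1 and 0.35 for Ifit3, and neither interaction passed (edgeR adjusted P = 0.401 and 0.295).

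The promoters of Ifit1 and Ifit3 are shown because these are the 2 interferon genes whose calls held in every leave-out, from RefSeq for GRCm38.p6 (Ifit1, chr19:34640639-34640938; Ifit3, chr19:34583279-34583578, both plus strand). Capitals mark GAAANNGAA, the core of the interferon-stimulated response element, which is read here on the opposite strand.
Ifit1: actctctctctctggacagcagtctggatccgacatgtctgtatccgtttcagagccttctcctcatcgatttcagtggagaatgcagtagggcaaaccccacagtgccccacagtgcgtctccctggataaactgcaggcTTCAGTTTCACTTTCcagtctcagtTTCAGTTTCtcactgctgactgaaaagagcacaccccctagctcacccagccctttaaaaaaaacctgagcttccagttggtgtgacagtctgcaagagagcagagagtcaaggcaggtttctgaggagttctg
Ifit3: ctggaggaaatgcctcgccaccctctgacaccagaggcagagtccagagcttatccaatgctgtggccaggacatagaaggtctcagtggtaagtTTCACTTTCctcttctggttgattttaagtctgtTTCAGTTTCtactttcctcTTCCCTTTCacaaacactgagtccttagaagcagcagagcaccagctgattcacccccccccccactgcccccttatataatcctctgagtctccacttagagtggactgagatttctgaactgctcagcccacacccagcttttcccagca
Each promoter held 3 matches, with first bases at -109, -103 and -84 in Ifit1, where the first 2 overlap, and at -155, -121 and -102 in Ifit3. On both strands, 7.06% of the 10908 promoters held at least 1 match.

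Contractile and metabolic genes rose in a few cases. Tpm1, the alpha-tropomyosin of the thin filament, measured 10200, 12500, 10700 and 9940 CPM in KO_PBS and 17000, 12900, 18400 and 15700 CPM in KO_ASO (log2FC 0.56, edgeR adjusted P = 0.0475). The glycolytic enzyme Ldha rose by a log2FC of 0.39 while the hexokinase Hk1 fell by 0.54 on the log2 scale, so that glycolysis gave 1 higher and 1 lower DEG of 17 (median 0.21, and 0.14 to 0.25 with 1 knockout sample left out; 4 called by DESeq2 and 5 by limma-voom). Car3, a carbonic anhydrase abundant in slow muscle and fat, measured 943, 1790, 1300 and 1150 CPM in KO_PBS and 4240, 2840, 2280 and 2710 CPM in KO_ASO (log2FC 1.22, edgeR adjusted P = 0.0373). Car3 was the only DEG of 9 fat cell markers, with 3 at an unadjusted P under 0.05, and 6 of the 9 had negative values, among them adiponectin, Adipoq, at -0.81. The median of the 9 was -0.74 and turned to 0.37 without KO_PBS replicate 4. Mylk2, the kinase of the myosin regulatory light chain, rose from 762 ± 174 to 1440 ± 366 CPM (SD, n = 4) and Kcnc1, a fast voltage-gated potassium channel, from 160 ± 12 to 209 ± 8.07 CPM (SD, n = 4). These calls ended in leave-outs, that of Kcnc1 without KO_ASO replicate 2 alone and the other 5 without KO_ASO replicate 1, KO_PBS replicate 1 and at least 3 other samples (edgeR adjusted P 0.0504 to 0.172).

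Single DEGs stood in several further lists. Over all genes tested 3.64% were DEGs and 2.83% were lower DEGs. A count of 1 in a list of this size is therefore no result about the list. Myh8, the perinatal myosin heavy chain, was the 1 lower DEG of 8 developmental contractile genes, Tead4 that of 14 Hippo pathway genes, Igf2r that of 16 genes of IGF signalling and Eda2r that of 14 p53 targets. The integrated stress response list gave 2 lower of 13, Mthfd2 (7.66 ± 0.602 to 4.69 ± 0.491 CPM; SD, n = 4), an enzyme of mitochondrial folate metabolism, and Psat1, of serine synthesis. Dnm2 was the 1 DEG of 4 dynamins by edgeR, and Dnm1 (log2FC -0.63, edgeR adjusted P = 0.0553) passed with DESeq2, limma-voom, the replicate block, no filter or no scaling and without KO_ASO replicate 4 or KO_PBS replicate 2 (adjusted P 0.0119 to 0.0458). Dnm2 and Cav3 were the DEGs of 10 centronuclear myopathy genes. The calls of Myh8, Tead4, Igf2r and Psat1 each ended without KO_PBS replicate 1 and 1 to 11 other samples (edgeR adjusted P 0.0505 to 0.161). The IGF list held 2 calls without KO_ASO replicate 4 and with DESeq2 or limma-voom, and the p53 list 2 with limma-voom and 3 without scaling.

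A total of 17 of the 49 lists held no DEG by edgeR. Of their 187 members 27 reached an unadjusted P under 0.05, where 2642 of all 14960 genes tested did. DESeq2 and limma-voom each called 9 of the 187 members. Fast-fibre genes had 13 of 14 positive values (median log2FC 0.26, 4 at an unadjusted P under 0.05, 2 called by DESeq2). Nuclear subunits of oxidative phosphorylation lay between -0.10 and 0.25 (24 genes, 0 at an unadjusted P under 0.05), and 7 mitochondrially encoded subunits between 0.00 and 0.27. Myogenic factors had a median of 0.11, fatty acid genes 0.11, circadian genes 0.33, immediate early genes -0.40 and endothelial markers 0.26. Further medians turned sign with single libraries or settings. Slow-fibre genes had a median of 0.11, which was -0.61 without KO_ASO replicate 1, -0.08 without KO_PBS replicate 3, -0.09 with limma-voom or the replicate block and -0.02 without scaling. Blood genes had a median of 0.47, which was -1.42 without KO_ASO replicate 4 and -0.89 with limma-voom. Atrophy genes (0.03) turned without KO_ASO or KO_PBS replicate 1 (both -0.02) and without scaling (-0.07), and cell cycle genes (-0.12) without KO_ASO replicate 2 or 3 or KO_PBS replicate 1 (0.01, 0.04 and 0.07). Nerve and Schwann cell genes (-0.02) turned without KO_ASO replicate 1 or 3 or KO_PBS replicate 4 (0.09, 0.11 and 0.09). Neutrophil, T and B lymphocyte and keratinocyte markers had 1 gene each that could be tested, S100a9, Cd4 and Krt10. The summed neutrophil markers reached 6.41 CPM in KO_PBS replicate 4 and at most 1.85 CPM in the other knockout samples. Lymphocyte markers summed to 0.51 to 1.32 CPM in the knockout samples, and the keratinocyte genes Krt14 and Krt1 were at 0 in all 8.

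In wild-type muscle edgeR called 1 gene in WT_ASO vs WT_PBS (0.00668% of genes tested), Dnm2 itself. The count was 4 without WT_PBS replicate 2, 3 without the filter, 33 with DESeq2 and 1 with limma-voom. The wild-type comparison shares no sample with that in knockout mice. Of the 424 genes lower in KO_ASO, 183 (43.2%) had a negative log2FC in wild-type muscle, where 49.0% of all genes did, and their wild-type median was 0.03. At an unadjusted P under 0.05 in wild-type muscle, 11 of the 424 changed in the same and 19 in the opposite direction (7.08% together, and 6.45% of all genes). For the 120 higher DEGs these numbers were 13 and 4 (14.2%).

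The 11 lower DEGs with the same wild-type direction included Dnm2, Wwox, Arl15, Ssbp3 and Pla2g2d. Wwox, a WW-domain oxidoreductase and tumour suppressor in a gene of 913 kb (chromosome 8, 114439655 to 115352708, plus strand), measured 9.29, 7.0, 6.97 and 6.48 CPM in KO_PBS and 4.32, 4.28, 5.09 and 4.74 CPM in KO_ASO (log2FC -0.69, SE 0.14, edgeR adjusted P = 0.0105). Its wild-type means were 6.89 and 4.11 CPM, a log2FC of -0.74 (unadjusted P = 5.24e-05, edgeR adjusted P = 0.131), and the interaction did not pass (edgeR adjusted P = 0.942). Arl15, a small GTPase of the ADP-ribosylation factor family in a gene of 363 kb (chromosome 13, 113794505 to 114157461, plus strand), measured 4.6, 4.08, 3.88 and 4.36 CPM in KO_PBS and 1.87, 2.14, 2.39 and 2.79 CPM in KO_ASO. Its log2FC was -0.88 in knockout (edgeR adjusted P = 0.0143, 0.0629 without KO_ASO replicate 1) and -0.88 in wild-type muscle (edgeR adjusted P = 0.166). Wwox and Arl15 were little altered by genotype, with log2FC values of 0.11 and 0.11 for KO_PBS vs WT_PBS. Pla2g2d, a secreted phospholipase, was read 14, 9, 16 and 19 times in KO_PBS and 3, 0, 0 and 2 times in KO_ASO, and 1, 11, 8 and 17 times in WT_PBS and 4, 1, 1 and 1 times in WT_ASO. Its call ended without any of KO_ASO replicates 1 to 3 or KO_PBS replicates 1 or 4, and that of Ssbp3 (log2FC -0.54 in knockout and -0.31 in wild-type muscle) without any of KO_ASO replicates 1 to 3 (edgeR adjusted P 0.0509 to 0.0875). Dcaf4, a substrate receptor of a ubiquitin ligase, was also little altered by genotype (log2FC 0.09) and fell in knockout muscle, from 27.5 ± 1.94 to 19.6 ± 1.58 CPM (SD, n = 4), with a wild-type log2FC of -0.01.

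**Figure D5:**
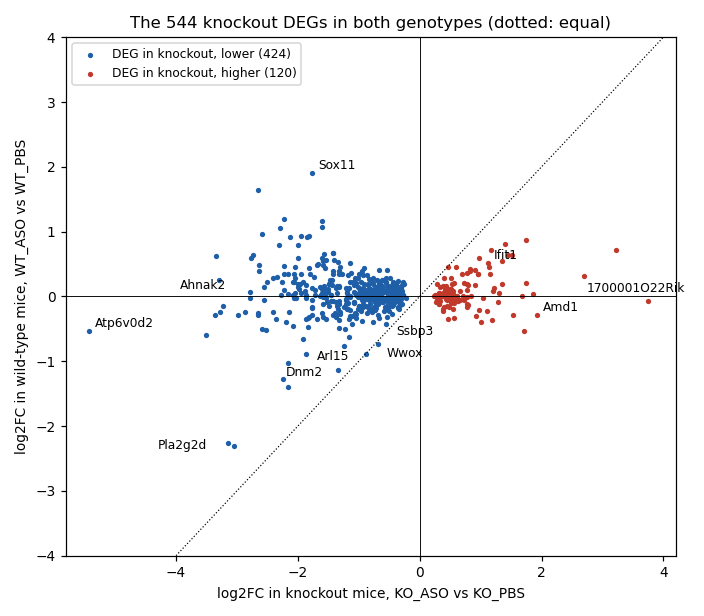
Log2 fold change of WT_ASO vs WT_PBS (y axis) against that of KO_ASO vs KO_PBS (x axis) for the 544 DEGs; the dotted line marks equal values. Dnm2, Wwox and Arl15 lie near the dotted line, and the wild-type medians of lower and higher DEGs are both 0.03.

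The difference between the effects in the 2 genotypes was tested as an interaction, which called 86 genes (0.575% of genes tested). With 1 sample left out the count ran from 23, without WT_PBS replicate 4, to 102, without KO_ASO replicate 4, and it was 26 without KO_PBS replicate 1, 31 without KO_ASO replicate 3, 32 without WT_ASO replicate 1 and 378 with DESeq2. Of the 544 DEGs, 76 (14.0%) were among them, 70 lower and 6 higher. The smallest P value was that of Ahnak2, with an interaction log2FC of -2.85 (edgeR adjusted P = 0.000494) and wild-type means of 4.84 and 5.11 CPM. Tmbim1, Anxa4, Sox11, Ncam1, Hexa and Cd68 followed, with wild-type log2FC values between -0.02 and 1.9. The wild-type value of Sox11, 1.9, rests on 8 counts in total in WT_PBS and 30 in WT_ASO. Mknk2, a kinase acting on the translation factor eIF4E, fell by 0.55 on the log2 scale in knockout muscle, a call lost without KO_PBS replicate 1 (edgeR adjusted P = 0.0518), and was at 0.22 in wild-type muscle. For Dnm2 the interaction did not pass (edgeR adjusted P = 0.636).

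The genotype comparison KO_PBS vs WT_PBS, which called 1878 genes (12.6% of genes tested), shares the KO_PBS samples with the treatment comparison, so its values stand here side by side only. The 424 lower DEGs had a median log2FC of 1.11 in KO_PBS vs WT_PBS and 0.15 in KO_ASO vs WT_PBS, and the 120 higher DEGs had medians of -0.58 and -0.06. KO_ASO vs WT_PBS called 6 genes (0.0401%). Among genes named, some KO_ASO means stayed above WT_PBS, such as Ahnak2 at 11.2 and 4.84 CPM, Ncam1 at 13.1 and 8.0 CPM, and Tubb6 at 27.9 and 10.4 CPM. Others were close to WT_PBS, such as Gusb at 13.9 and 14.2 CPM, Mettl11b at 37.1 and 37.4 CPM, and Map1lc3a at 137 and 139 CPM. Amd1, at 54.5 CPM in KO_ASO and 101 CPM in WT_PBS, and Smox, at 275 and 544 CPM, stayed below. These are group means without their spread, and no test of KO_ASO vs WT_PBS is given for each gene.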

How the data were processed

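Samples were grouped by the labels, and each was taken to be a separate mouse; where that does not hold, P values measure technical spread. Values deposited by the authors are whole read counts for each Ensembl gene on GRCm38, without normalization. Tools listed in the submitters' processing notes are STAR 2.5.3a, HTSeq 0.6.1p1, cutadapt 1.10 and Bowtie2 2.2.8. The labels give a stranded kit, but the strand setting of the counting is not given in the sources used here, so reads of Dnm2 and Tmed1, Tmbim1 and Pnkd, Hexa and Tmem202, Fbxl13 and Lrrc17, Des and Gm15179, Wwox and Gm16118, Csf1r and Hmgxb3, Bin1 and A830052D11Rik, Igf2r and Airn, and Ciita and Dexi, which overlap on opposite strands, may be mixed.

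Genes were filtered with filterByExpr, which left 14960 of 29730, counts were scaled by TMM, and a robust edgeR 4.0.16 quasi-likelihood model (R 4.3.3) was fitted to all 16 samples with 1 mean per group (biological coefficient of variation 18.7%). P values were Benjamini-Hochberg adjusted over all genes tested, separately for each comparison, and DEGs had an adjusted P under 0.05. CPM are on TMM-scaled totals and SD is over 4 samples. Alternatives used DESeq2 1.42.0, limma 3.58.1 (voom), other scaling and filters, a replicate block and leaving out each sample. The tests were checked on simulated counts.

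The comparison and the 49 gene lists were chosen with earlier results of these data known, and gene families in the closing section after their values were seen. Genes named were Dnm2 and Bin1, then DEGs with the smallest P at 2-fold or more without overlap of the groups (10 lower and 10 higher), the largest log2FC above 1 CPM (5 and 5), the highest CPM (5 and 5), up to 4 DEGs per list (or the member of smallest P), the largest P for genotype (5 and 5) and the smallest P for interaction (3 and 3). Adipoq, Ahnak, Amd2, Anxa1, C1qa, C1qb, C1qc, Chrng, Ctsz, Dysf, Isg15, Kcnn2, Laptm5, Lyz2, Mx1, Myog, Odc1 and Tyrobp fell outside this rule and were added from the lists after their values were seen. RefSeq promoters (250 bases before to 50 after the start) matched 10908 genes tested and 416 of 544 DEGs. Chrnd and Ncam1 had no promoter there. CAGCTG occurred in 22.6% of 318 promoters of lower DEGs and 14.3% of 98 of higher DEGs, beside 15.3% of all. GAAANNGAA occurred in 5.03% and 8.16%, beside 7.06% of all. Whether these shares differ was not tested. Some members that count in the lists are not reported here by name.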

Additional observations from a re-analysis of the deposited data

Results flagged for a closer look

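The edgeR interaction test found an effect that differed between knockout and wild-type muscle for 22 of the 110 genes given by the naming rule. These genes were named mostly for their change in knockout muscle or for their interaction P, so the count and its direction follow in part from that choice, and over all genes tested 0.575% were called. The interaction log2FC is the knockout minus the wild-type effect, and 19 of the 22 values were negative. Among membrane, cytoskeletal and denervation genes it was -2.85 for Ahnak2 (adjusted P = 0.000494), -1.08 for Anxa4 (0.00344), -0.74 for Des (0.0234), -1.52 for Ncam1 (0.00348) and -3.66 for Sox11 (0.00344). Among macrophage and lysosomal genes it was -3.11 for Cd68 (0.00355), -2.05 for Cd163 (0.0391), -3.56 for Gpnmb (0.00701), -2.49 for Lgals3 (0.0222), -0.85 for Hexa (0.00355), -0.6 for Ctsl (0.0405) and -0.88 for Map1lc3a (0.0117). It was -1.13 for Tmbim1 (0.00138), -1.26 for Tnfrsf23 (0.00535), -2.32 for Sh2d4a (0.00588), -2.7 for Slc6a17 (0.0369), -3.55 for Sln (0.0314), -0.96 for Mthfd2 (0.0117) and -0.77 for Mknk2 (0.0391). The 3 positive values of the 22 were 3.82 for 1700001O22Rik (0.0176), 0.89 for Pdzd2 (0.0327) and 0.58 for Kcnc1 (0.0261). Genes named outside that rule passed too, such as Kcnn2 at 1.22 (0.0327) and Serpinb1a at -2.2 (0.0172). Serpinb8 at -2.48 (0.0356), Cers6 at -1.66 (0.0238) and S100a13 at -1.06 (0.0261) were others.

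Single samples lay far from the rest of their group, by Dixon's test at the 95% level, in 21 of the 220 groups tested, where chance alone gives about 1 in 20. KO_PBS replicate 4 was high for leukocyte genes, with 9.59 CPM of Itgb2 (2.56 to 3.25 in the others), 38.0 CPM of Ctss (5.27 to 10.4), 46.2 CPM of Lgals3 (22.5 to 26.2) and 3.33 CPM of S100a9 (0.0551 to 0.34), and low for Lmna, with 119 CPM (146 to 148). KO_PBS replicate 1 was high for Kcnn3 at 28.5 CPM (17.0 to 17.8), Timp1 at 43.4 CPM (13.8 to 17.4), Tubb6 at 82.9 CPM (67.2 to 69.2), Ltbp2 at 6.7 CPM (1.12 to 1.65), Psat1 at 6.81 CPM (4.83 to 5.13) and Mfap5 at 53.3 CPM (26.4 to 27.5). KO_ASO replicate 4 was high for Psat1 at 3.69 CPM (1.25 to 1.6), Gusb at 14.9 CPM (13.4 to 13.6), Mfap5 at 24.3 CPM (9.45 to 10), Mt3 at 9.82 CPM (2.18 to 3.48), Cd14 at 1.32 CPM (0.76 to 0.831), Col8a1 at 19.3 CPM (4.38 to 6.33) and Hbb-bt at 53.8 CPM (3.18 to 5.34). KO_ASO replicate 2 was low for Dcaf4 at 17.3 CPM (20.2 to 20.7) and high for Runx1 at 5.98 CPM (3.03 to 3.45), and KO_ASO replicate 1 was low for Loxl1 at 6.19 CPM (11.1 to 11.7).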

How the results depend on the processing

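Decreases outnumbered increases under each alternative. The 544 DEGs (424 lower, 120 higher, 232 at least 2-fold) became 1056 with DESeq2 (723, 333, 369), 1186 with limma-voom (752 lower, 434 higher) and 300 from the knockout samples alone (245, 55, 142). Higher DEGs were 73 without the filter, 63 without scaling (697 lower) and 198 with the replicate block. Leaving out 1 sample gave 208 to 831 DEGs, 22 to 280 higher, 183 to 551 lower and 111 to 321 of at least 2-fold. In wild-type muscle 1 DEG became 33 with DESeq2, 3 without the filter, 2 with the replicate block and 1 to 4 with 1 sample left out, and the 86 interaction genes became 378 with DESeq2 and 23 to 102 with 1 sample left out. Causes were not tested. DESeq2 called 542 of the 544 DEGs, limma-voom 524 and the knockout samples alone 260. In any setting 0 of the 544 changed direction, which choosing them on the same values largely fixes. Of the 110 genes given by the naming rule, 92 were DEGs, and 50 kept their side of the threshold in every setting. Some of the 110 are not printed by name, and genes added outside the rule are not among them. Of the 49 list medians 16 changed sign in some setting. Replicate numbers were not used to pair samples, and the main fit holds no term for them. Deviations of same-numbered KO_PBS and KO_ASO samples correlated at -0.0261, 0.0719, 0.166 and -0.0359. The values were 0.0689 to 0.361 between WT_PBS and WT_ASO and -0.0777 to 0.225 between KO_PBS and WT_PBS. Between KO_ASO and WT_ASO they were 0.0128 to 0.435, and 3 of the 4 were over 0.1 in each of these latter pairs of groups. Different-numbered samples ran, in the same order, from -0.16 to 0.0589, -0.273 to 0.0693, -0.237 to 0.195 and -0.382 to 0.133. The block gave 752 DEGs, 513 of them among the 544, and 126 interaction genes, and Smox, Ccl9, Ciita, Ctss, Tead4 and Rian were not called with it (edgeR adjusted P 0.0503 to 0.0849). Depth limits genes of few reads, such as Pla2g2d.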

Other observations

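Some gene families were looked up after their values were seen and are given as a description. Over all genes tested 3.64% were DEGs. Of 6 Serpinb genes, which encode inhibitors of serine proteases inside cells, 3 fell. Serpinb1a fell from 47.1 ± 18.2 to 10.6 ± 2.35 CPM (SD, n = 4, log2FC -2.16, edgeR adjusted P = 0.000409), Serpinb8 from 12.9 ± 5.66 to 2.67 ± 1.2 CPM and Serpinb6a from 495 ± 27.6 to 289 ± 58.8 CPM. Of 9 S100 calcium-binding proteins S100a4, S100a13 and S100a6 fell (log2FC -1.69, -0.98 and -0.74), and the call of S100a6 ended without KO_ASO replicate 1 or 2 or KO_PBS replicate 1 or 4 (edgeR adjusted P 0.0545 to 0.0867). The microtubule-associated proteins Map1a (52.8 ± 10.9 to 25 ± 4.46 CPM) and Map1b (16.1 ± 3.63 to 9.09 ± 0.54 CPM; SD, n = 4) fell among 3 of their family. In sphingolipid synthesis the ceramide synthase Cers6 and the sphingomyelin synthase Sgms2 fell (log2FC -1.57 and -1.59), 2 of 12 genes.

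Dual-specificity phosphatases (Dusp genes) gave 3 lower DEGs of 22 (median log2FC 0.08), among them Dusp4 (7.7 ± 0.911 to 2.32 ± 0.952 CPM) and Dusp5 (3.64 ± 1.21 to 1.06 ± 0.473 CPM; SD, n = 4). Of 41 potassium channel genes with Kcn symbols 4 rose and 3 fell (median 0.03). Of 9 Ras association (Rassf) genes 3 fell (median 0.08). Of 12 major histocompatibility genes with H2-Q, H2-T or H2-M symbols 0 were DEGs by edgeR (median 0.36), with 4 at an unadjusted P under 0.05, 1 called by DESeq2 and 0 by limma-voom. Of 14 lysosomal glycohydrolases, Hexa and Gusb fell (median -0.12). Of 12 genes of the myotubularin family 0 were DEGs by edgeR (median 0.08), with 3 at an unadjusted P under 0.05 and 2 called by each of the other tools.

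Increases of other kinds rested on fewer reads or on single libraries. Atp1a4, a sodium pump subunit, was read 1, 5, 7 and 12 times in KO_PBS and 24, 18, 19 and 14 times in KO_ASO, and its call ended without KO_ASO replicate 1 or 3 (edgeR adjusted P 0.0594 to 0.0693). Edn3, the peptide endothelin 3, was read 6, 6, 11 and 13 times in KO_PBS and 26, 14, 29 and 16 times in KO_ASO, a call lost without KO_ASO replicate 1 or 3 or KO_PBS replicate 1 (edgeR adjusted P 0.0632 to 0.0779). Rian, an imprinted noncoding RNA, measured 18.4 ± 3.04 CPM in KO_PBS and 35.7 ± 9.74 CPM in KO_ASO (SD, n = 4, edgeR adjusted P = 0.0481, and 0.0502 to 0.16 without any of the KO_PBS samples, KO_ASO replicates 1, 3 or 4, WT_ASO replicates 1 or 3 or WT_PBS replicates 1 or 4).

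Several genes with sizeable differences missed the threshold. Trim63, the atrophy ubiquitin ligase MuRF1, measured 421 ± 44.1 CPM in KO_PBS and 300 ± 25 CPM in KO_ASO without overlap (SD, n = 4, edgeR adjusted P = 0.145), and passed without WT_ASO replicate 4 (0.0122) and from the knockout samples alone (0.0368). Myod1, the myogenic factor, measured 10.1 ± 1.88 and 22.4 ± 9.16 CPM (SD, n = 4, edgeR adjusted P = 0.0692), with 9.93 CPM in KO_ASO replicate 3 and 22.2 to 31.6 CPM in the other treated samples, and passed without KO_ASO replicate 3 (0.0261) or WT_ASO replicate 4 (0.0447) and with DESeq2 (0.0103). Hlf, a transcription factor under circadian control, measured 4.2 ± 1.66 and 11 ± 5.31 CPM (SD, n = 4, edgeR adjusted P = 0.0805) without overlap, and passed with DESeq2 (0.00904).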
